A study of Mus musculus with 12 samples.

Results

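The 10 genes Ccl2, Ccl7, Ccl11, Ccl12, Ccl8, Ccl1, Ccl5, Ccl9, Ccl6 and Ccl3 encode CC chemokines and lie in 2 groups on mouse chromosome 11. They were taken by symbol, and all 10 had a row among the 27179 Entrez gene IDs of the count tables. They were chosen by their levels in these same libraries, in CPM (a gene's count per 1e6 counts of its library), so their levels are described here without a test. The RNA came from NIH3T3 cells, an immortalized line of mouse embryonic fibroblasts, genotyped as RelA-/- with a RelA-DsRed fusion, and all samples shared this background. RelA, also called p65, is a subunit of the transcription factor NF-κB. Neither the promoter that drives the fusion nor whether the line is a single clone is stated in the labels.

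By the labels there are 4 groups of 3 samples: IL-1β at 0.2 ng/mL, LPS at 100 ng/mL, PAM at 0.2 ng/mL and media, each for 2 h in a microfluidic device. The table of IL-1 replicate 3 recurs unchanged in all 9 samples outside the IL-1 group, so the 3 distinct tables, all from IL-1-treated cells, are the ones used. The levels below are those of IL-1-treated cells and do not show whether IL-1 changed a gene. The 3 libraries held 17254518, 18091073 and 18578859 counts, and nothing in the labels says whether they came from separate cultures, so an SD (n = 3) may be technical. A gene is called detected below where it stood at 1 CPM or more in each of the 3 libraries. By that measure 12 of 14 fibroblast markers were detected, beside 41.3% of all gene IDs and 51.1% of protein-coding genes. The highest was Vim, an intermediate filament gene, at 3162 ± 76.6 CPM, and next came the matrix gene Sparc at 1484 ± 25.3 CPM. S100a4 followed at 1388 ± 154 CPM, then the collagen gene Col1a2 at 1154 ± 9.66 CPM. Fap had no count.

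CC chemokines are small secreted proteins named after a pair of adjacent cysteines near the start of the mature protein. They bind heparan sulfate on cell surfaces and G protein-coupled receptors on leukocytes, and direct the migration of monocytes, T cells, eosinophils and other white cells into tissue. Fibroblasts are a known source of several of them during inflammation, and Ccl2 in particular was isolated early on as a gene induced in mouse fibroblasts by growth factor. In the mouse, the members from Ccl2 to Ccl1 include the monocyte chemoattractant proteins, and those from Ccl5 to Ccl3 the macrophage inflammatory proteins and RANTES.

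Every one of the 10 coding sequences held exactly 1 pair of adjacent cysteine codons. The stretch of 45 bases around it is shown, 5′ to 3′, for the 4 detected members (Ccl2, Ccl7, Ccl5 and Ccl9), for the closest relative of Ccl9 (Ccl6), for Ccl3, which had no count, and for Ccl12, whose pair is spelled differently. Capitals mark the pair. Positions are GRCm38, from the GENCODE M21 annotation.
Ccl2 (chr11:82036494-82036538, plus strand): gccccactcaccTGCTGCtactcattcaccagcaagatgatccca
Ccl7 (chr11:82046526-82046570, plus strand): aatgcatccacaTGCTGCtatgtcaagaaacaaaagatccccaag
Ccl12 (chr11:82102622-82102666, plus strand): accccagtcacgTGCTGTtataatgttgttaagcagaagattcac
Ccl5 (chr11:83529215-83529259, minus strand): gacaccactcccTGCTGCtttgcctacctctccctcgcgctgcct
Ccl9 (chr11:83575899-83575943, minus strand): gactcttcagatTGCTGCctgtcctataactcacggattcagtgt
Ccl6 (chr11:83589359-83589403, minus strand): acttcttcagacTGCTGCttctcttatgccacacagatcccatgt
Ccl3 (chr11:83648625-83648669, minus strand): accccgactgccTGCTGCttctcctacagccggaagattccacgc

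The pair read TGCTGC in 9 of the 10 members and TGCTGT in Ccl12 alone. In 8 members it lay in exon 2 of 3, between codons 32 and 34 counted from the start codon. Ccl9 and Ccl6 have 4 exons, and there the pair lay in exon 3, at codon 57 in Ccl9 and at codon 50 in Ccl6. Aligned end to end, with gaps left out of the count, the coding sequences were 52.4% to 70.8% identical within the Ccl2 to Ccl1 group (median 64.6% over 15 pairs), 56.9% to 69.3% within the Ccl5 to Ccl3 group (median 58.0% over 6 pairs) and 48.4% to 62% across the groups (median 54.7% over 24 pairs). The closest pairs were Ccl12 with Ccl8, at 70.8%, and Ccl9 with Ccl6, at 69.3%.

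No stretch of 30 bases from the longest coding transcript of a member occurred in an annotated transcript of another member. Reads of that length or longer from those longest transcripts, without mismatches, would thus not be split among the members. Stretches found only in other transcripts of a member were not searched. Of the 2977 stretches of 30 bases in the Ccl9 transcript, 126 (4.23%) also occurred in transcripts of 2192 other genes, and of 2957 stretches of 50 bases 59 (2.00%) did. At 100 bases none of Ccl9 was shared. For Ccl6 it was 19 of 1411 stretches of 30 bases, for Ccl11 3 of 1053, and for the other 7 members none. The labels state neither the read length nor how reads that map to several places were handled.

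Of the 10 members, 4 were detected, 2 of 6 in the Ccl2 to Ccl1 group and 2 of 4 in the Ccl5 to Ccl3 group. The same level was reached by 41.3% of all 27179 gene IDs and by 51.1% of 20983 protein-coding genes. At 0.5 CPM it was 5 members, with Ccl8 added, and 43.6% of gene IDs, and at 2 CPM 4 members and 38.8%. At least 1 count in any library was found for 9 members, all but Ccl3, and for 70% of gene IDs. The median member was at 0.777 CPM, and the median of all gene IDs was 0.183 CPM. The 10 members held 0.0650% ± 0.0045 of the counts of a library (SD, n = 3), and 76.9% ± 0.27 of that was Ccl2.

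**Figure D1:**
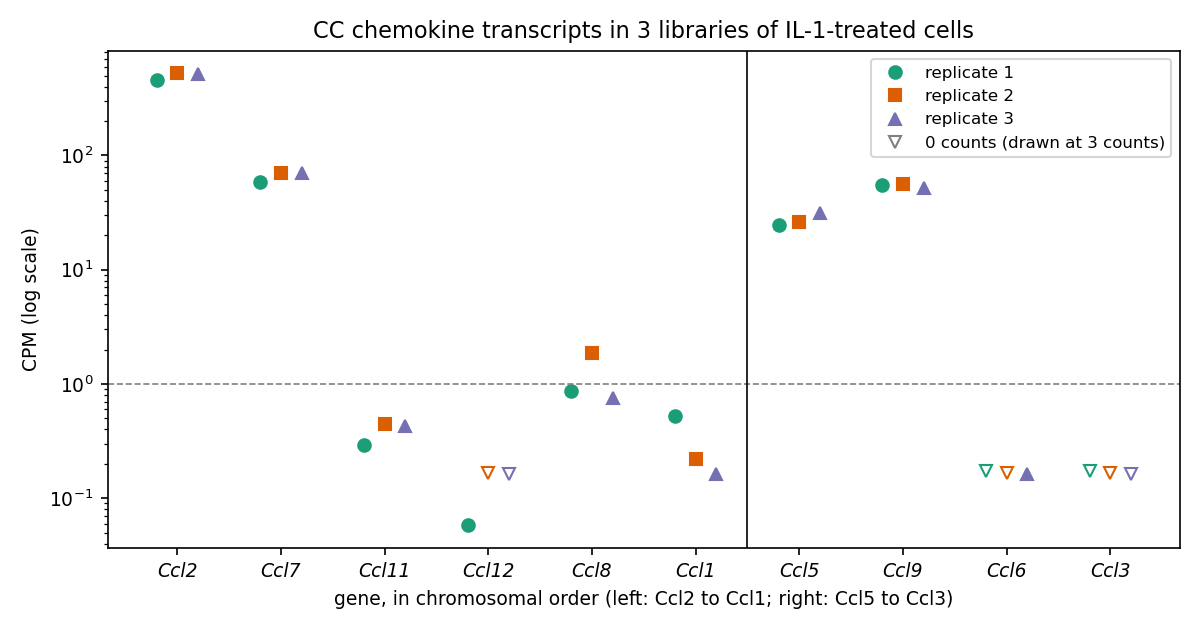
CPM of each member on a log axis in the 3 IL-1 libraries, in chromosomal order, with the Ccl2 to Ccl1 group left of the vertical line; open triangles are counts of 0, drawn at the level of 3 counts, and the dashed line is 1 CPM. Ccl2, Ccl7, Ccl5 and Ccl9 stand above 20 CPM in each library, Ccl8 crosses the line in replicate 2 alone, and the other 5 lie below it throughout.

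Ccl2 (Entrez 20296, chromosome 11, 82035577 to 82037452) encodes MCP-1, which recruits monocytes through CCR2. It had 7897, 9469 and 9633 counts in replicates 1 to 3, or 458, 523 and 518 CPM, with a mean of 499.9 ± 36.6 CPM (SD, n = 3). That placed it at rank 270 of the 27179 gene IDs. Replicate 1 was the lowest of the libraries.

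Ccl7 (Entrez 20306, 82045712 to 82047525), the next gene, encodes MCP-3, which acts on CCR2 and other receptors of monocytes. It had 1005, 1276 and 1297 counts, or 58.2, 70.5 and 69.8 CPM, with a mean of 66.2 ± 6.89 CPM. Replicate 1 was again the lowest. Per kb of merged exons, Ccl2 stood 5.53-fold, 5.22-fold and 5.23-fold above Ccl7 in replicates 1 to 3, so the ratio of these neighbours differed little between libraries.

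The remaining members of that group fell short of detection. Ccl8 (82115185 to 82116799) encodes MCP-2, which in the mouse acts on CCR8. It had 15, 34 and 14 counts, or 0.869, 1.88 and 0.754 CPM, with only replicate 2 above 1 CPM. Ccl11 (82057832 to 82062955), whose product eotaxin attracts eosinophils through CCR3, had 5, 8 and 8 counts. Ccl1 (82176666 to 82179812), a ligand of CCR8 made by activated T cells, had 9, 4 and 3 counts. Ccl12 (82101845 to 82103399), which encodes MCP-5, a mouse ligand of CCR2, had 1 count in replicate 1 and none in the others.

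Over the 3 libraries together, with 53924450 counts, the level of Ccl8 was 1.17 CPM (95% exact Poisson interval 0.898 to 1.49), of Ccl11 0.389 CPM (0.241 to 0.595), of Ccl1 0.297 CPM (0.170 to 0.482) and of Ccl12 0.0185 CPM (0.00047 to 0.103). These intervals cover counting error only, since reads without molecular identifiers are not independent molecules. Ccl12 and Ccl8, the pair closest in coding sequence, had 1 and 63 counts in all.

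In the second group, Ccl5 and Ccl9 were both present. Ccl5 (Entrez 20304, 83525778 to 83530518) encodes RANTES, which attracts T cells and monocytes through CCR1 and other receptors. It had 422, 471 and 585 counts, or 24.5, 26.0 and 31.5 CPM, with a mean of 27.3 ± 3.69 CPM. Replicate 3 was the highest.

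Ccl9 (Entrez 20308, 83572917 to 83578636) encodes MIP-1γ, a ligand of CCR1 found in rodents. It had 958, 1022 and 967 counts, or 55.5, 56.5 and 52.0 CPM, with a mean of 54.7 ± 2.34 CPM. Its libraries lay closest together of the 4 detected members.

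Ccl6 (83587886 to 83593087), the neighbour and closest relative of Ccl9 and another ligand of CCR1 in rodents, had no count in replicates 1 and 2 and 3 counts in replicate 3, or 0.0556 CPM over all libraries (95% exact Poisson interval 0.0115 to 0.163). Ccl3 (83647843 to 83649378), whose product MIP-1α acts on CCR1, had no count in any library. A count of 0 over the 3 libraries allows up to 3 counts, or 0.0556 CPM, and the 95% exact Poisson interval used for the other low members reaches 0.0684 CPM.

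Gene models overlap at 3 members of the second group. Ccl6 lies within the span of the noncoding E230016K23Rik, on the opposite strand, which had 14, 7 and 13 counts. In the RefSeq models Ccl3 shares 755 bases with Ccl4, on the opposite strand, which had 0, 2 and 0 counts. In both cases the GENCODE exons share no base. Ccl5 lies within the span of the noncoding Gm32650, which has no row in the count tables. The labels do not state the strand setting of the counting, so reads from both strands of such a place cannot be told apart.

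Windows of the promoter (250 bases before to 50 after the start, RefSeq, GRCm38.p6) could be read for 6 of the 10 members: Ccl12, Ccl8, Ccl1, Ccl9, Ccl6 and Ccl3. Ccl2, Ccl7 and Ccl5 had no window, so any contrast of motifs between detected and other members rests on Ccl9 alone. The windows of Ccl9 and Ccl6 are shown because these neighbours are the closest pair in coding sequence of their group. They had 2947 counts in all for Ccl9 and 3 for Ccl6, so they were also picked with their levels known. Both are on the minus strand and printed 5′ to 3′ along the gene. Capitals mark matches to the motifs searched.
Ccl9 (chr11:83578587-83578886): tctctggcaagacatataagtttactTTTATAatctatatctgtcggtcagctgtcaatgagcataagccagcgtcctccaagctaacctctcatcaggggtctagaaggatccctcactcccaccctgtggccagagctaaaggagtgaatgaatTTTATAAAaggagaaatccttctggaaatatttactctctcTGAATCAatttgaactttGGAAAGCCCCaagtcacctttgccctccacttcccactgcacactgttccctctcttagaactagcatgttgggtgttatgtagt
Ccl6 (chr11:83593038-83593337): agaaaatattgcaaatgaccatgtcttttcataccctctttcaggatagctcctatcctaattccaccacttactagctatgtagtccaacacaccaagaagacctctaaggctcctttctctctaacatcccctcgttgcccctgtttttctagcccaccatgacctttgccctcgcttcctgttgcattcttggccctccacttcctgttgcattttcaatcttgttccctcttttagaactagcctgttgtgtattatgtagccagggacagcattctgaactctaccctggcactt

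The motifs, searched on both strands, were the NF-κB consensus, the AP-1 site TGANTCA, the C/EBP site TTGCNNAA, the ISRE-like motif (GAAA and GAAA with 2 bases between), the GAS-like TTCNNNGAA, the TATA box TATAAA and the GC box GGGCGG. The Ccl9 window held an NF-κB match at positions -35 to -26 from the start, an AP-1 match at -53 to -47 and 3 TATA matches, 2 of which overlap, on opposite strands, between -94 and -87. The Ccl6 and Ccl3 windows held no match to any of the 7 motifs. Ccl1 held 2 overlapping NF-κB matches between -196 and -186, and Ccl12 and Ccl8 each held a TATA match, at -31 to -26 and at -32 to -27. Of 32851 windows in the genome, 8.46% held the NF-κB consensus, 7.81% the AP-1 site and 13.6% the TATA box. The C/EBP site was in 10.8%, the ISRE-like motif in 3.44%, the GAS-like motif in 8.30% and the GC box in 35.7%. A match is a run of letters and not a bound site, and no binding was measured.

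Summed over its 6 members, the Ccl2 to Ccl1 group was at 518, 596 and 590 CPM in replicates 1 to 3. The 4 members of the Ccl5 to Ccl3 group summed to 80.0, 82.5 and 83.7 CPM. The first group was higher in all 3 libraries, by 6.47-fold, 7.23-fold and 7.05-fold, a mean log2 ratio of 2.79 ± 0.083 (SD, n = 3). Per kb of merged exons the ratio was 10.9, 12.1 and 10.9.

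By CPM this order rested on Ccl2, which made up 88.0% ± 0.34 of the counts of its group. Without Ccl2, the first group summed to 60.0, 73.1 and 71.2 CPM and stood below the second in every library. It was at 0.750, 0.885 and 0.850 of the second group's level (log2 ratio -0.27 ± 0.12). Ccl9, the highest gene of the second group by CPM, was kept there. Apart from Ccl9 that group held Ccl5, at 24.5, 26.0 and 31.5 CPM, and 3 counts of Ccl6. These levels lie below the sums of the first group without Ccl2. Per kb of merged exons, the first group without Ccl2 stayed the higher in each library. Its mean was 85.4 ± 9.17 CPM per kb, against 46.5 ± 3.21 for the second group. The median member of the first group was at 0.695, 1.16 and 0.592 CPM, against 12.2, 13.0 and 15.8 CPM in the second. That order turned round once Ccl4 was counted, a CC chemokine gene whose RefSeq model overlaps the end of the second interval and extends beyond it. The median of mean CPM was then 0.777 over the 6 genes of the first interval and 0.0538 over the 5 protein-coding genes that overlap the second. In each group nearly all counts came from a pair of genes. Ccl2 and Ccl7 held 99.7% ± 0.099 in the first group, and Ccl5 and Ccl9 held 99.9% ± 0.11 in the second. The detected pair stands at the start of each group as ordered along the chromosome: Ccl2 and Ccl7 are adjacent, and so are Ccl5 and Ccl9 among the members.

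**Figure D2:**
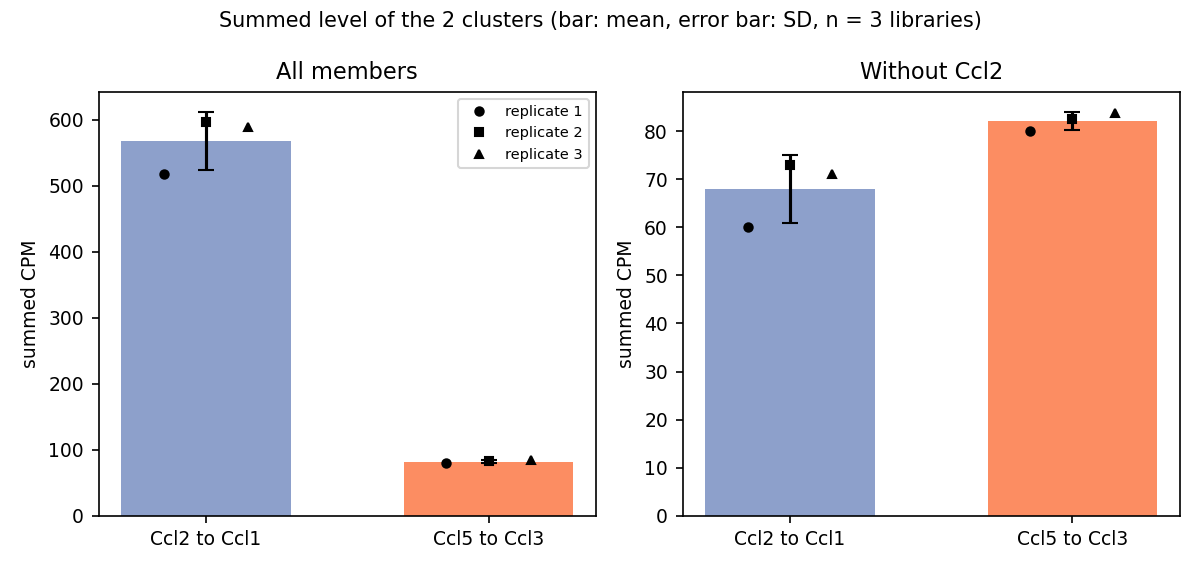
Summed CPM of the Ccl2 to Ccl1 group (left bar) and the Ccl5 to Ccl3 group (right bar), with all members and without Ccl2; bars are means, error bars SD over 3 libraries, and points the libraries. With Ccl2 the first group is 6.47-fold to 7.23-fold higher by CPM. Without it, and with Ccl9 kept in the second, the first group is the lower in each library by CPM, though not per kb of merged exons.

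CPM depend on transcript length, so levels of different genes were compared per kb. With merged exons of GENCODE M21 (1138 bases for Ccl2, 801 for Ccl7, 960 for Ccl5 and 3045 for Ccl9), the order was Ccl2 at 439 ± 32.2 CPM per kb, Ccl7 at 82.6 ± 8.61, Ccl5 at 28.5 ± 3.84 and Ccl9 at 18 ± 0.767. The values of these neighbours in the order did not overlap in any pair over the 3 libraries. Below them came Ccl8 at 2.28 ± 1.21 CPM per kb, Ccl11 at 0.358 ± 0.078 and Ccl1 at 0.127 ± 0.081. Per kb of the longest coding transcript Ccl1 was the higher of the last pair, at 0.493 ± 0.316 against 0.358 ± 0.078 for Ccl11, so their order turned on the length used. Ccl12, Ccl6 and Ccl3, with 1, 3 and 0 counts in all, could not be ordered among themselves.

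The order of Ccl5 and Ccl9 also turned on the length used. Ccl5 was 1.40-fold, 1.46-fold and 1.92-fold above Ccl9 per kb of merged exons, and also the higher per kb of the longest coding transcript (51.4 ± 6.93 against 18.2 ± 0.777 CPM per kb). Per kb of coding sequence alone, Ccl5 was at 99.0 ± 13.4 and Ccl9 at 148 ± 6.33, so Ccl9 was the higher. The annotated Ccl9 transcript is 3006 bases long with 369 coding bases, and that of Ccl5 532 bases with 276 coding bases. Which transcript ends the cells used was not tested. Ccl2 and Ccl7 kept the first and second place under all 3 lengths.

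**Figure D3:**
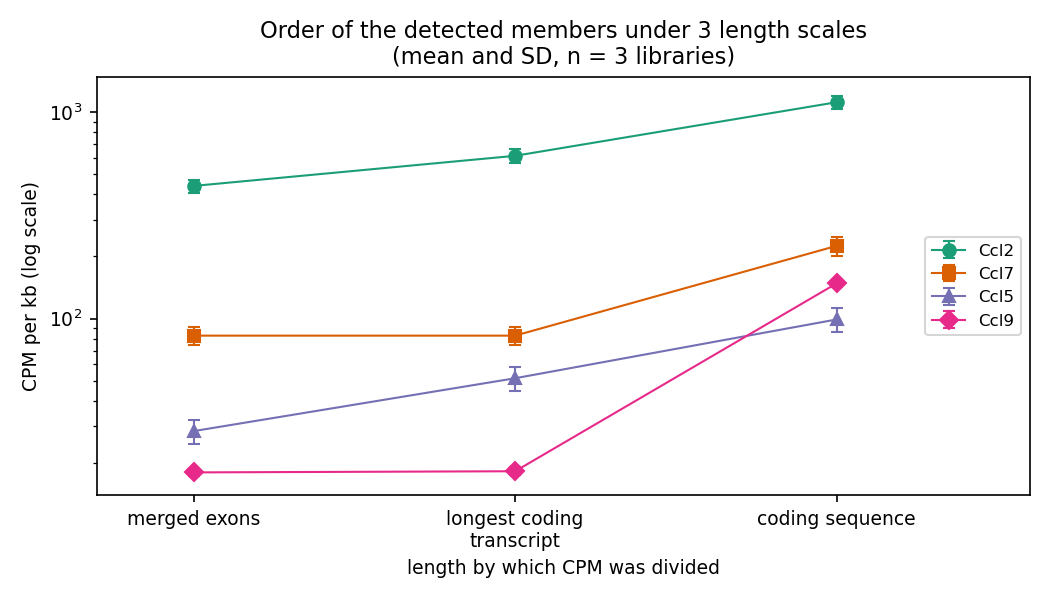
CPM per kb (log axis) of the 4 detected members, with CPM divided by merged exons, by the longest coding transcript or by coding sequence; points are means and error bars SD over 3 libraries. Ccl2 and Ccl7 stay first and second, while Ccl9 passes Ccl5 when only coding bases are counted.

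Between libraries, the detected members spread by 4.27% for Ccl9, 7.32% for Ccl2, 10.4% for Ccl7 and 13.5% for Ccl5 (coefficient of variation of CPM, n = 3). The median over the 11224 genes at 1 CPM or more in every library was 8.56%, and 19.4%, 41.8%, 60.3% and 73.9% of them varied less than Ccl9, Ccl2, Ccl7 and Ccl5. Against counting error alone, the chi-square per degree of freedom, which is near 1 when libraries differ by counting only, was 1.83 for Ccl9, 47.1 for Ccl2, 12.6 for Ccl7 and 9.0 for Ccl5. This ratio grows with the count. With counting error taken off, the coefficient of variation was 2.85% for Ccl9, 7.24% for Ccl2, 9.98% for Ccl7 and 12.7% for Ccl5. Estimated with edgeR over 11784 genes, the spread beyond counting error common to all genes was 0.0933 as a coefficient of variation, and 0.0690 without replicate 1.

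Of the 4 detected members, 3 were lowest in replicate 1 (Ccl2, Ccl7 and Ccl5), as were 30.2% of the 11224 genes. Ccl9 was lowest in replicate 3, as were 27.9%, and no detected member was lowest in replicate 2, where 41.9% of the genes were. Another 3 of the 4 were highest in replicate 2 (Ccl2, Ccl7 and Ccl9), as were 27.1% of those genes, and Ccl5 was highest in replicate 3, as were 27.3%. None was highest in replicate 1, where 45.7% of the genes were. These places were the same with TMM and with relative log expression factors. Set against the mean of the other libraries on the log2(CPM + 0.5) scale, Ccl2 was at -0.19, Ccl7 at -0.27 and Ccl5 at -0.22 in replicate 1, where the median gene was at 0.05 and the middle 90% of genes spanned -0.32 to 0.42. Ccl9 was at 0.03 in that library. Ccl5 in replicate 3, at 0.31, was the only value of the 12 outside the middle 90%, which there ended at 0.29.

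**Figure D4:**
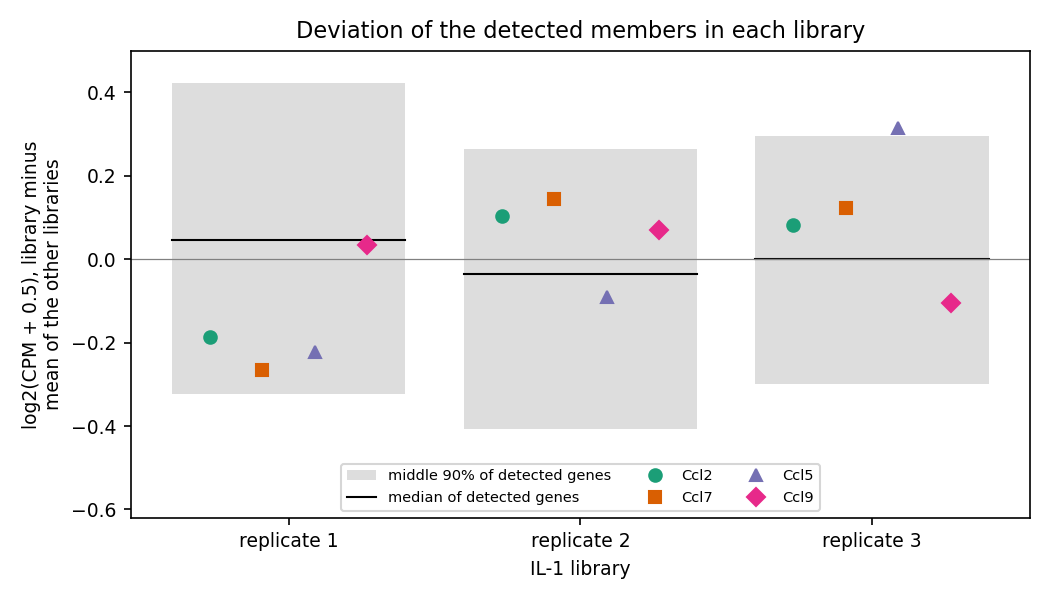
log2(CPM + 0.5) of each detected member in 1 library minus the mean of the other libraries; grey boxes span the middle 90% of the 11224 detected genes and black lines mark their median. Ccl2, Ccl7 and Ccl5 lie at -0.19 to -0.27 in replicate 1, and Ccl5 reaches 0.31 in replicate 3.

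The Ccl2 to Ccl1 group spans 144 kb, the Ccl5 to Ccl3 group 124 kb, and 1.35 Mb lie between them. No other gene with a row in the count tables lies within the first group. Of the genes with a row that overlap the 500 kb before Ccl2, none of 3 was detected, and the highest was at 0.0184 CPM. Of 25 protein-coding genes between the groups, 12 were detected, among them Ap2b1, a subunit of the clathrin adaptor, at 62.2 ± 4.99 CPM, the DNA ligase gene Lig3 at 61.2 ± 6.71 CPM, Zfp830 at 33.9 ± 0.315 CPM and the DNA repair gene Rad51d at 28.4 ± 3.52 CPM. The interval also holds 8 protein-coding Schlafen genes, of which 4 were detected. In the 500 kb after Ccl3, 6 of 11 protein-coding genes were detected, the highest at 139 CPM. Beside these counts, 41.3% of all gene IDs and 51.1% of all protein-coding genes were detected. By CPM, Ccl2 was the highest gene of the whole interval.

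**Figure D5:**
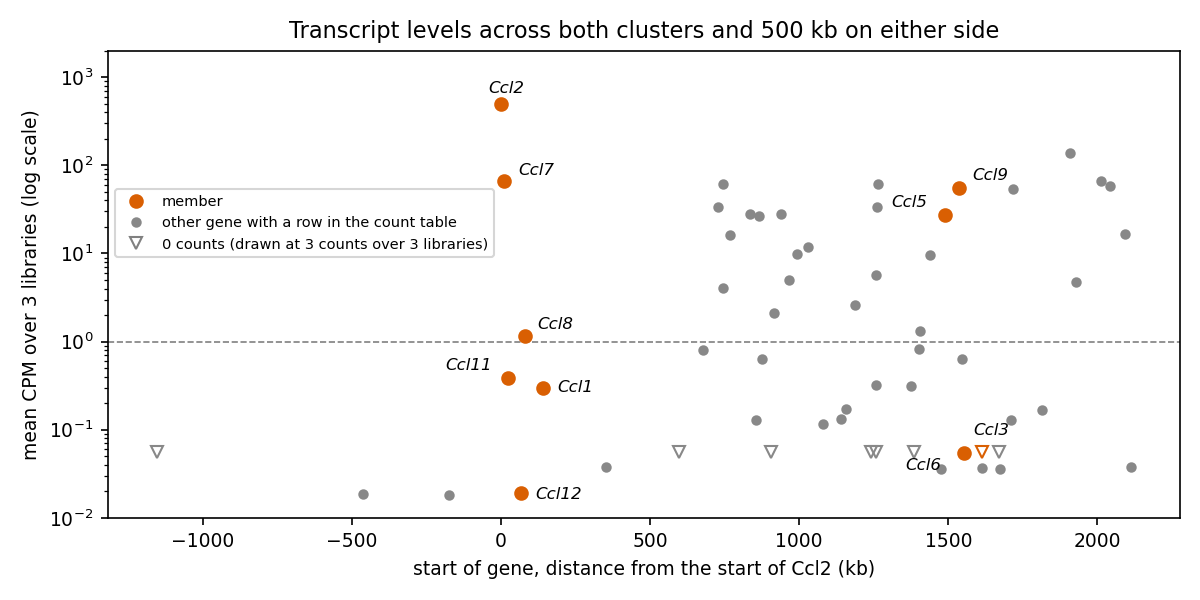
Mean CPM (log axis) of every gene with a row in the count tables against the distance of its start from that of Ccl2, over both groups, the interval between them and genes that overlap 500 kb on either side; members are orange, open triangles had no count, and the dashed line is 1 CPM. Ccl2 stands highest, with no detected gene before it, and low members lie beside high ones in both groups.

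Of 13 CC chemokine genes outside the 10, 3 were detected, beside 41.3% of all gene IDs and 51.1% of protein-coding genes. These were Ccl25, a T cell attractant of thymus and gut, at 11 ± 1.54 CPM, Ccl20, a ligand of CCR6, at 5.69 ± 1.54 CPM, and Ccl27a at 2.39 ± 0.171 CPM. Ccl17 followed at 0.960 ± 0.191 CPM. No count was found for Ccl19, Ccl21a, Ccl21b, Ccl21d, Ccl24 and Ccl26.

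None of 12 listed genes of CC receptors and receptor-like proteins was detected, against 41.3% of all gene IDs and 51.1% of protein-coding genes. At a minimum of 0.5 CPM in each library, Ccrl2 and Ccr7 would pass, beside 43.6% of gene IDs. The highest were Ccrl2 at 1.32 ± 0.371 CPM, Ccr7 at 1.21 ± 0.492 CPM, Ccr10 at 0.842 ± 0.417 CPM and Ccr9 at 0.0957 ± 0.121 CPM. Ccr2, the receptor for the products of Ccl2, Ccl7 and Ccl12, had no count, nor had Ccr3, Ccr8 and Ccr1l1. Ccr1, a receptor for the products of Ccl5, Ccl9, Ccl6 and Ccl3, had 0, 1 and 0 counts. Of 4 atypical receptors, which bind chemokines without signalling through G proteins, Ackr3 alone was detected, at 66.1 ± 1.92 CPM. Ackr2, which scavenges inflammatory CC chemokines, had 1, 0 and 1 counts, Ackr4 was at 0.131 ± 0.139 CPM and Ackr1 had no count.

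Of 17 listed genes whose products hold or cleave chemokines, 16 were detected, beside 41.3% of all gene IDs and 51.1% of protein-coding genes. The heparan sulfate carriers Sdc4 at 931 ± 117 CPM and Sdc2 at 438 ± 10.9 CPM were highest, followed by the protease Mmp2 at 318 ± 19.8 CPM, which can truncate the product of Ccl7, and the heparan sulfate polymerase subunit Ext2 at 169 ± 13.0 CPM. Dpp4, a protease that trims the ends of several chemokines, had 2, 2 and 1 counts.

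Since several of the members are typical of leukocytes, markers of other cells are given beside them. Beside the counts of detected markers below, 41.3% of all gene IDs and 51.1% of protein-coding genes were detected. Of 14 macrophage markers, 6 were detected, which is near those shares. The 14 summed to 36.5, 37.3 and 28.5 CPM in replicates 1 to 3. They were led by Lyz2 at 9.69 ± 2.70 CPM, Cd74 at 9.50 ± 1.70 CPM, Mertk at 6.18 ± 1.03 CPM and Mrc1 at 4.29 ± 0.223 CPM. Csf1r, the receptor for macrophage colony-stimulating factor, had 32, 40 and 27 counts (1.84 ± 0.379 CPM), and Cd68 had 20, 55 and 36 (2.05 ± 0.945 CPM). Spi1 and Cd163 had no count, Ptprc had 3, 0 and 6 counts, and Adgre1 4, 0 and 0. The sum was lowest in replicate 3, where Ccl5 was highest and Ccl9 lowest. Whether any such cells were present, or had a part in these levels, was not tested. None of 12 lymphocyte and mast cell markers was detected, with sums of 0.174, 0.387 and 0.161 CPM. Cd3e, Cd3g, Cd8a, Gzmb, Cpa3 and Kit had no count. Of 7 endothelial markers only Egfl7 was detected, at 13.8 ± 0.649 CPM, and Tie1 had no count. None of 8 epithelial markers was detected, with sums of 0.638, 0.663 and 0.646 CPM.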

How the data were processed

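Polyadenylated RNA of NIH3T3 cells was sequenced after 10 cycles of pre-amplification, per the labels' protocols, from cells passaged at most 20 times. The deposited tables hold raw counts per Entrez gene ID with no normalization. CASAVA, STAR and featureCounts were used with mm10, per the submitters' processing notes; their versions, the annotation and the strand setting were not stated. Of 12 deposited tables, 9 were copies of IL-1 replicate 3 and were left out, so no comparison between groups was made.

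CPM were computed from library totals. Detection needed at least 1 CPM in all libraries. Symbols and positions came from RefSeq GRCm38.p6 (25275 of 27179 IDs matched), exon lengths and transcripts from GENCODE M21. A count of 0 was given a limit of 3 counts. The common coefficient of variation came from edgeR 4.0.16 (R 4.3.3), tested on simulated data. Python 3.11.15, pandas 2.3.3, scipy 1.17.1 and Biopython 1.88 did the rest. Coding sequences were aligned globally, since no protein table was used. The log2 scale used a pseudocount of 0.5 CPM. Genes were named from the 10 members, the 4 highest and the uncounted genes of each other list, the other genes within a group and the 5 highest genes between the groups; other genes named were chosen after their values were seen. The members and lists were chosen with earlier results of these data known. Values of some genes that this rule names are not reported here.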

Additional observations from a re-analysis of the deposited data

How the results depend on the processing

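No paired analysis was possible because the design came down to a single treatment with distinct tables. The mean CPM of each member stayed within 1 SD with TMM or relative log expression factors. It also did with any library left out, which by construction cannot move a mean of 3 by 1 SD. The number of detected members was 4 with every scaling, 4 at a minimum of 2 CPM, 4 with any library left out, 5 at 0.5 CPM (Ccl8 added), and 9 when any single count sufficed (background 70% of gene IDs). The log2 ratio of the Ccl2 to Ccl1 group over the Ccl5 to Ccl3 group was 2.79 by CPM, 2.76 to 2.84 with a library left out, 3.50 per kb of exon, 3.33 per kb of the longest coding transcript and 2.45 per kb of coding sequence. Without Ccl2, and with Ccl9 kept in the second group, it turned to -0.27 by CPM, while per kb of merged exons the first group stayed the higher. The median member on the log2(CPM + 0.5) scale was at 0.31 in the first group and 1.96 in the second, a difference of -1.65. With its pseudocount, that difference is not a log2 ratio of the median CPM and is not on the scale of the ratios above. Ccl2 held 88.0% of the counts of its group, and 2 of 6 members were detected in the first group against 2 of 4 in the second. Why the members differ in level was not tested. The common coefficient of variation ran from 0.0690 without replicate 1 to 0.113 without replicate 3. The lengths of the longest transcript and of coding sequence were added after the data were seen. Below 1 CPM a member rests on few reads, 1 to 21 counts in all for Ccl11, Ccl12, Ccl1 and Ccl6.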
